A study of Mus musculus with 4 samples.

Results

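The genes described here encode the collagen chains and the enzymes and helper proteins that mature them, and were followed here in 3T3-L1 cells, an established mouse line of preadipocytes that resembles fibroblasts. They were taken from the authors' table as every symbol of the form Col, number, a, number, together with 23 named enzymes and helpers. A total of 59 genes were found under the names used and 2 more, Lepre1 and Leprel1, under their current RefSeq symbols P3h1 and P3h2. This gave 61 of the 16709 listed gene symbols, with 38 chains (11 fibrillar, 6 of type IV and 21 others) and 23 enzymes and helpers.

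RNA sequencing compared cells treated with 25 µM Nutlin-3a for 24 h, a small molecule that keeps MDM2 away from p53, with cells given an equivalent amount of its solvent DMSO in parallel. All cells grew in medium with serum, with 2 biological replicates in each of the 2 groups, at 1 dose and 1 time. The comparison asks how transcripts of preadipocytes differ once p53 is activated. The authors' table held 1 FPKM value (fragments normalised to transcript length and to the mapped fragments of a sample) per transcript and group, so no value below has a replicate error, no test was possible, and the depth of each library is unknown. Higher and lower therefore describe the size of the ratio between 2 group values.

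Collagens are secreted proteins built from chains that carry glycine at regular steps and wind around each other in a triple helix. Types I, III and V form the banded fibrils of connective tissue, type IV forms the sheet-like network of basement membranes, and type VI forms beaded filaments close to cells. Inside the endoplasmic reticulum, prolines and lysines of the chains are hydroxylated, and the collagen chaperone HSP47 and prolyl isomerases assist folding. After secretion the C-propeptide is removed and lysyl oxidases crosslink the fibrils. Preadipocytes make a fibrillar matrix, and differentiating adipocytes are known to surround themselves with basement membrane.

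The most abundant fibrillar chains and a few helpers were far lower in Nutlin-3a. The main basement membrane chains and most modifying enzymes lay closer to their DMSO values, as did most of all genes compared. Genes were compared where the mean of the group values reached 1 FPKM and neither was 0. The limit for a count as higher or lower was 2-fold after adding 1 to each FPKM, and log2 ratios below use that scale, which understates ratios of weakly expressed genes. Folds are plain ratios of FPKM, and in each pair of values joined by against, Nutlin-3a comes first and DMSO second. Of 61 members, 42 entered the comparison, 10 of these were at least 2-fold lower (23.8%) and 2 were at least 2-fold higher. Over all 10331 genes compared, 6.14% were at least 2-fold lower and 6.62% at least 2-fold higher. The median log2 ratio was -0.66 over the 42 members and 0.07 over all genes compared. Among genes with a mean of at least 20 FPKM, 7 of 25 members were at least 2-fold lower, against 6.95% of 3236 genes. Among these 42, Col11a2, Plod2 and P4ha3 had under 1 FPKM in 1 group and passed through the other.

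**Figure D1:**
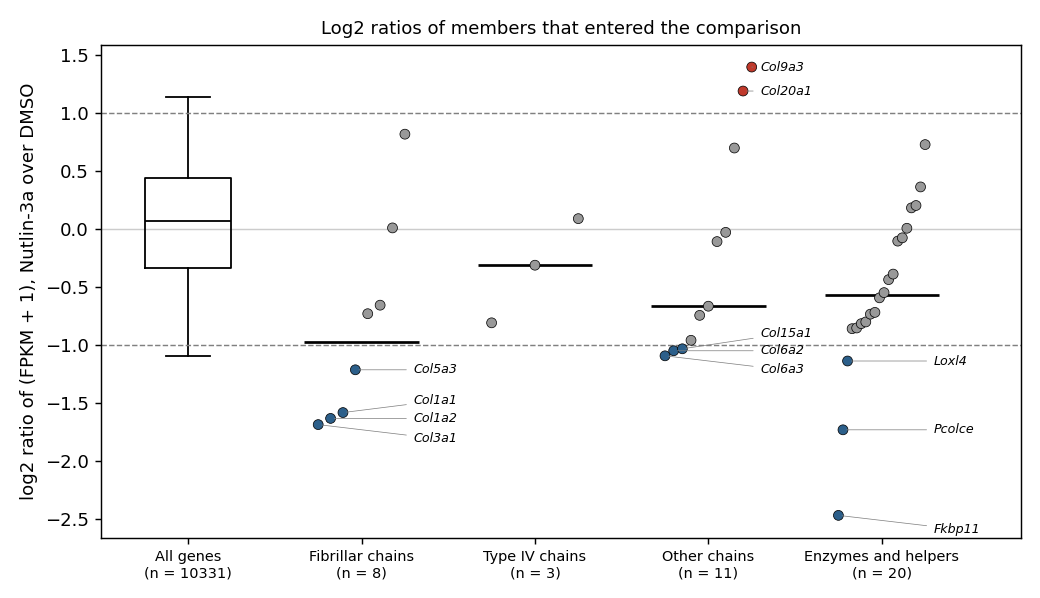
Log2 ratios of (FPKM + 1), Nutlin-3a over DMSO, for the members compared, by class, with each point a gene and the short bar the class median. The box shows the median and quartiles of all 10331 genes compared, with whiskers at percentiles 5 and 95, and dashed lines mark the 2-fold limit. The class medians are -0.97 for fibrillar chains, -0.31 for type IV, -0.66 for other chains and -0.57 for enzymes and helpers.

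Among the 8 fibrillar chains compared, 4 passed the limit as lower and 0 as higher, against 6.14% and 6.62% of all genes compared. Their median log2 ratio was -0.97. Col1a2, which encodes the α2 chain of type I collagen, was the most abundant chain of all, with 263 FPKM under Nutlin-3a against 817 FPKM under DMSO. Its partner Col1a1, which encodes the α1 chain, was listed at 63.9 against 193 FPKM. Col3a1, the only chain of type III collagen, had 52.0 against 169.5 FPKM. All 3 lay between 3.02-fold and 3.26-fold lower, with log2 ratios of -1.63, -1.58 and -1.68. Col1a1 lies on chromosome 11 from 94936270 to 94951856, Col1a2 on chromosome 6 from 4505697 to 4541543 and Col3a1 on chromosome 1 from 45311538 to 45349706 (mm10, whole gene models as listed).

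The ratios between these 3 chains were close in both groups: Col1a2 had 4.12 times the FPKM of Col1a1 in Nutlin-3a and 4.23 times in DMSO. Col1a2 stood at 5.05 times the FPKM of Col3a1 in Nutlin-3a and 4.82 times in DMSO. Type I collagen is known to hold more α1 than α2 chains, whereas the listed transcript levels per length ran the other way in both groups. The listed Col1a1 model ended 1186 bases before the end of the gene in GENCODE, and the part of this in its level was not tested.

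The type V chains, which sit inside type I fibrils and regulate their diameter, differed in their ratios. Col5a3 was 2.67-fold lower (3.78 against 10.1 FPKM), though within 2-fold on the log2 scale with a pseudocount of 5 (-0.78) and after a GC correction (-0.92). Col5a2 was listed at 29.5 against 47.0 FPKM, a log2 ratio of -0.66 and inside the limit. Col5a1, the chain found in most type V molecules, was almost equal at 31.9 against 31.7 FPKM, a log2 ratio of 0.01 that turned to -0.06 when centred on the median of all genes. Col5a2 thus stood at 1.48 times the FPKM of Col5a1 in DMSO and 0.924 times in Nutlin-3a. Col5a1 stood at 3.14 times the FPKM of Col5a3 in DMSO and 8.43 times in Nutlin-3a.

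The remaining fibrillar chains were weak. Col27a1 had 1.80 against 3.64 FPKM, a plain ratio of 2.02-fold lower but a log2 ratio of -0.73. Col11a2, a chain known from cartilage, had 2.25 against 0.844 FPKM, a log2 ratio of 0.82. It was past the limit when corrected for GC content (1.11) and with a pseudocount of 0.5 (1.03), but at 0.31 with a pseudocount of 5. Col2a1, the main collagen of cartilage, had 1.72 FPKM in Nutlin-3a, nearly all from a newly assembled isoform, and was listed at 0 in DMSO, so no fold is given. Col11a1 (0.136 against 0.507 FPKM) and Col24a1 (0.00684 against 0.00897 FPKM) were under the minimum.

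**Figure D2:**
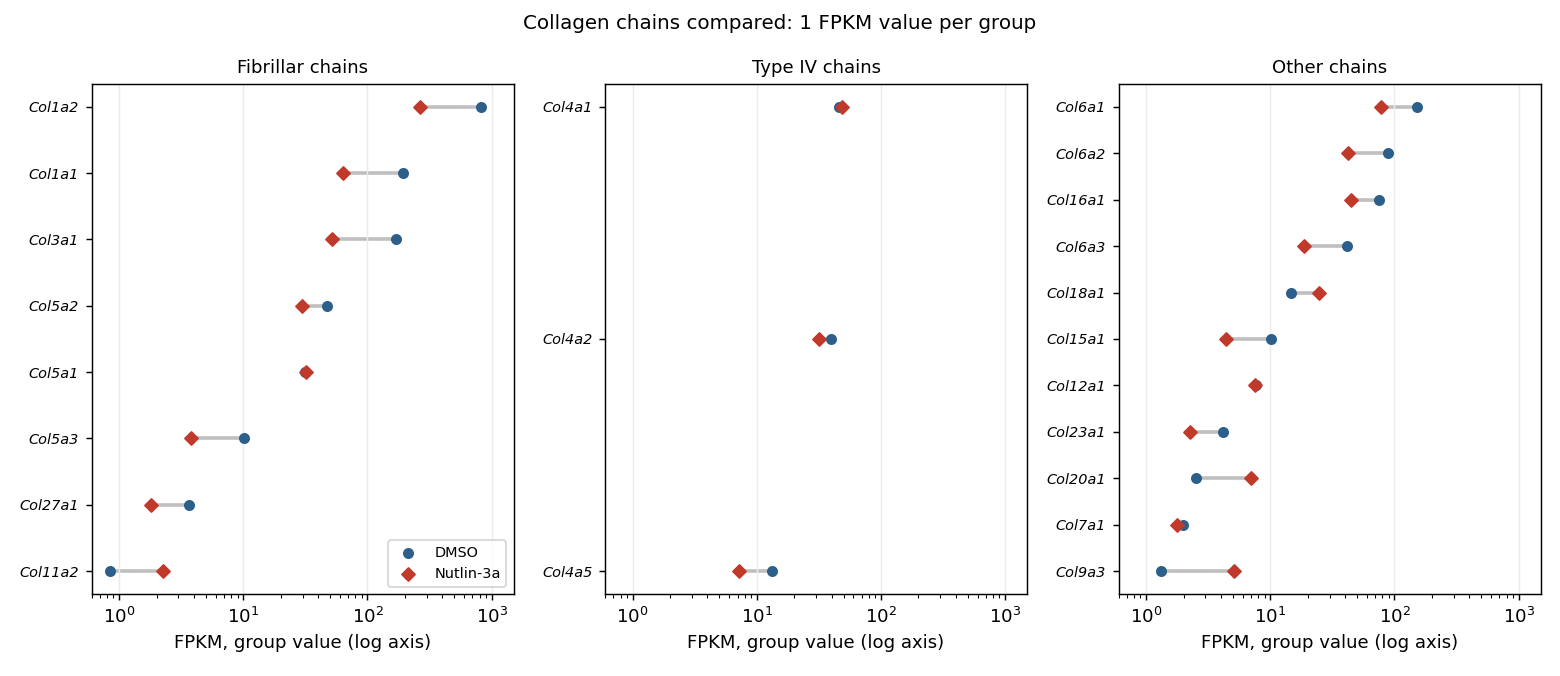
FPKM of each collagen chain compared (log axis), with circles for DMSO and diamonds for Nutlin-3a, each a group value without replicate error, in separate panels for fibrillar, type IV and other chains. The diamonds of Col1a2, Col1a1 and Col3a1 lie about equally far to the left of their circles, and both symbols of Col5a1 and Col4a1 nearly coincide.

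The bases before the RefSeq start (GRCm38.p6, which is mm10 in its chromosomes) are shown for 3 fibrillar chains that were lower and for Col5a1, which was not, to set the promoters of chains with low ratios beside 1 whose level was almost equal. The windows are chr6:4505370-4505492 on the plus strand (248 to 126 bases before the start, the stretch outside any GENCODE exon), chr1:45311288-45311537 on the plus strand, chr9:20815068-20815317 on the minus strand and chr2:27886175-27886424 on the plus strand, the last 3 of 250 bases. Capitals mark matches on either strand to the CCAAT box (CCAAT), the GC box bound by Sp1 (GGGCGG) and the TATA box (TATAAA).
Col1a2: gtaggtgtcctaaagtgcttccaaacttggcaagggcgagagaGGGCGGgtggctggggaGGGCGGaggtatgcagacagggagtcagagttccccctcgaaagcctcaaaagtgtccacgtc
Col3a1: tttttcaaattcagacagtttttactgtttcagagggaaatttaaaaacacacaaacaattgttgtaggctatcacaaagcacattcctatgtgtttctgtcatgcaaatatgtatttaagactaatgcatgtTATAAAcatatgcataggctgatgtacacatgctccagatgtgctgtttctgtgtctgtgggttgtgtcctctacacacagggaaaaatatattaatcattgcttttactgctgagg
Col5a3: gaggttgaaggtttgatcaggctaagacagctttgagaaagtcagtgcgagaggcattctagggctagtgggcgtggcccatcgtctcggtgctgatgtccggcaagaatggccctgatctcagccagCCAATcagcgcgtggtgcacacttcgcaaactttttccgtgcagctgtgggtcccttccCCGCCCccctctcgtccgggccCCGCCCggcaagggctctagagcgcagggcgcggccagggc
Col5a1: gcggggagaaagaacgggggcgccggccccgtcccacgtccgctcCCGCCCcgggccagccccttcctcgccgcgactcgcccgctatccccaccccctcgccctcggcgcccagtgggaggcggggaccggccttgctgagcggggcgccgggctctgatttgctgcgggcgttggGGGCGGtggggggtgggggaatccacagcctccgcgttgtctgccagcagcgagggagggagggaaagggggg
Within the printed stretches, that of Col1a2 held GGGCGG at 205 and 188 bases before the start, that of Col3a1 held only TATAAA at 117, and that of Col5a3 held CCAAT at 122 and GGGCGG at 63 and 41. The window of Col5a1 held GGGCGG at 205 and 73 bases before the start. The whole window of Col1a2, of which 127 bases lie in GENCODE exons and are not printed, held 1 CCAAT and 2 GGGCGG matches, as many of each as that of Col5a3.

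Over the 250 bases before the start, a window was found for 44 of the 61 members, Col1a1 and Col5a2 not among them, and a gene counted as a match if any of its starts had one. GGGCGG was present in 6 of 9 members that were at least 2-fold lower and in 16 of 23 members compared that were not lower. It was present in 66.4% of 7962 genes compared that had a window and in 35.4% of all 27025 genes of the promoter table. CCAAT was present in 3 of the 9 and 9 of the 23 members, against 41.1% of the genes compared and 37.5% of all genes. TATAAA was present in 1 of the 9 and 3 of the 23, against 7.1% and 14.3%. The decamer of the p53 response element was matched in 1 of 44 members, Col20a1, against 8.2% of all genes and 7.0% of the genes compared. All 250 bases of that Col20a1 window lie in GENCODE exons. A full site, a pair of such decamers 0 to 13 bases apart, was matched in 0 of 44 members, against 0.1% of all genes. A match here describes letters in a window, and nothing about a factor is drawn from a match or from its absence.

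Summed over the 38 chains, collagen transcripts made up 776 FPKM under Nutlin-3a against 1774 FPKM under DMSO, a 2.29-fold lower sum and 0.0802% against 0.181% of all FPKM. Few chains carried the sum. Col1a2, Col1a1 and Col3a1 together held 66.5% of collagen FPKM in DMSO and 48.8% in Nutlin-3a. Fibrillar chains as a class went from 71.8% in DMSO to 58.0% in Nutlin-3a, while type IV chains went from 5.54% to 11.3% and type VI chains from 15.9% to 18.0%. The type IV sum itself was 98.3 FPKM in DMSO and 87.5 FPKM in Nutlin-3a, so its larger share stood beside a slightly lower level. The type VI sum was 282.9 FPKM in DMSO and 139.5 FPKM in Nutlin-3a, 2.03-fold lower beside a larger share.

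**Figure D3:**
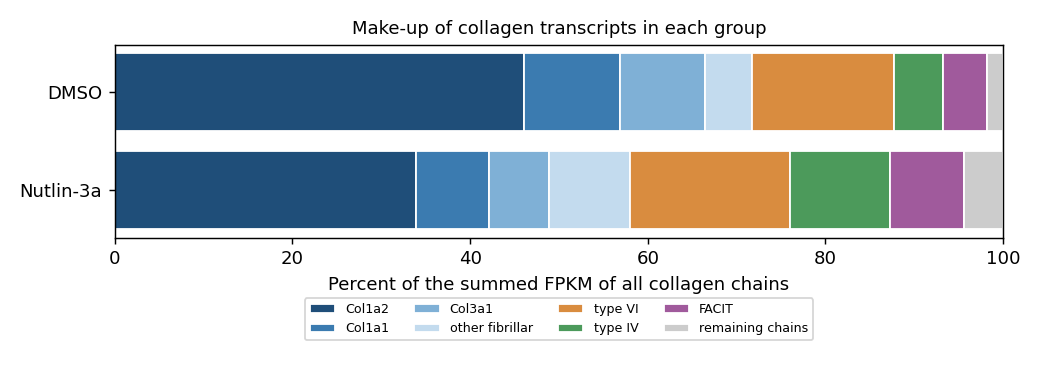
Share of the summed FPKM of all 38 collagen chains held by each chain or family, in percent, for DMSO (1774 FPKM in all) and Nutlin-3a (776 FPKM in all). The blue segments of the fibrillar chains take 71.8% of the bar in DMSO and 58.0% in Nutlin-3a, and the green type IV segment takes 5.54% and 11.3%.

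Of the 3 type IV chains compared, 0 passed the limit in either direction, and their median log2 ratio was -0.31. Over all genes compared, 6.14% were lower and 6.62% higher, so 0 of 3 does not set these chains apart. Col4a1, which joins Col4a2 in the common basement membrane molecule, was listed at 48.6 against 45.6 FPKM, a log2 ratio of 0.09. Col4a2 had 31.6 against 39.4 FPKM, a log2 ratio of -0.31. Col4a1 and Col4a2 lie head to head on chromosome 8, from 11198423 to 11312826 on the minus strand and from 11312829 to 11449287 on the plus strand, with 2 bases between the listed models (mm10).

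Both chains thus lay near their DMSO level, and Col4a1 stood at 1.54 times the FPKM of Col4a2 in Nutlin-3a and 1.16 times in DMSO. Col1a2 stood at 17.9 times the FPKM of Col4a1 in DMSO and 5.41 times in Nutlin-3a. Col4a5, a chain of the specialised networks of kidney and other tissues, had 7.16 against 13.3 FPKM, a log2 ratio of -0.81 and the lowest of the class. Its head-to-head neighbour Col4a6 on the X chromosome had 0.146 against 0.00607 FPKM, and the pair Col4a3 (0.0458 against 0.0211 FPKM) and Col4a4 (0.0119 against 0.00467 FPKM) was likewise under the minimum.

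Of the 11 other chains compared, 3 passed the limit as lower and 2 as higher, against 6.14% and 6.62% of all genes compared. Their median log2 ratio was -0.66. The 3 type VI chains that are joined in equal numbers in the type VI molecule lay side by side. Col6a1 had 78.2 against 152.9 FPKM, Col6a2 had 42.4 against 88.9 FPKM and Col6a3 had 18.8 against 41.2 FPKM. Their log2 ratios of -0.96, -1.05 and -1.09 straddled the limit: Col6a1 was just inside and Col6a2 and Col6a3 just past it. Centred on the median of all genes, Col6a1 was past it as well (-1.03). The ratio of Col6a1 to Col6a2 was 1.84 in Nutlin-3a and 1.72 in DMSO, and that of Col6a2 to Col6a3 was 2.26 and 2.16. After a correction for GC content Col6a2 (-0.94) and Col6a3 (-0.91) were inside it. Col6a1 lies on chromosome 10 from 76708792 to 76726044 and Col6a2 from 76595756 to 76623404 (mm10).

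The multiplexins Col15a1 and Col18a1, whose proteins sit at basement membranes and release antiangiogenic C-terminal fragments, had ratios of opposite sign. Col15a1 was 2.28-fold lower (4.41 against 10.1 FPKM, log2 ratio -1.03, -0.84 after a correction for GC content and -0.68 with a pseudocount of 5). Col18a1 was listed 1.67-fold higher (24.6 against 14.8 FPKM), a log2 ratio of 0.70 inside the limit. Its listed model overlaps Slc19a1 on the other strand. Whether the authors' counting used strand is not stated in these sources.

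The collagens that attach to fibrils without forming them, known as FACIT collagens, were mixed. Col16a1, the most abundant of them, had 44.5 against 75.2 FPKM (log2 ratio -0.74), and Col12a1 was almost equal at 7.50 against 7.66 FPKM. The 2 higher chains were both weak. Col9a3, a chain of cartilage type IX collagen, was 3.87-fold higher (5.11 against 1.32 FPKM), and Col20a1 was 2.79-fold higher (7.03 against 2.52 FPKM). The listed model of Col9a3 ran 20502 bases past the end of the gene in GENCODE and over Tcfl5 on the other strand, so its value is uncertain. With a pseudocount of 5 both were inside the limit, at a log2 ratio of 0.68 each.

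Among the rest, the transmembrane collagen gene Col23a1 had 2.27 against 4.18 FPKM and the anchoring fibril gene Col7a1 had 1.76 against 1.97 FPKM. The network collagens of types VIII and X were under the minimum, with Col8a1 at 0.303 against 0.618 FPKM. In all, 19 members were under the minimum, 16 chains and 3 enzymes or helpers. Of these, 12 had the higher value in Nutlin-3a and 7 in DMSO, and 3 (Col2a1, Col19a1 and Col26a1) were listed at 0 in DMSO. The same split over all genes under the minimum was not computed, so nothing particular to the members is drawn from it. Zeros were more common in DMSO across the whole table, with 2346 of all 16709 symbols at 0 there and 466 in Nutlin-3a. The 3 members at 0 may be failed estimates, and values this near to 0 are uncertain.

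Most enzymes and helpers had ratios nearer to 0 than the type I and III chains. Of 20 compared, 3 passed the limit as lower and 0 as higher, with a median log2 ratio of -0.57. A total of 15 of the 20 had a log2 ratio below 0, against 45.2% of all genes compared, although Loxl3 (0.02) and P3h1 (0.12) were above 0 after a correction for GC content.

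**Figure D4:**
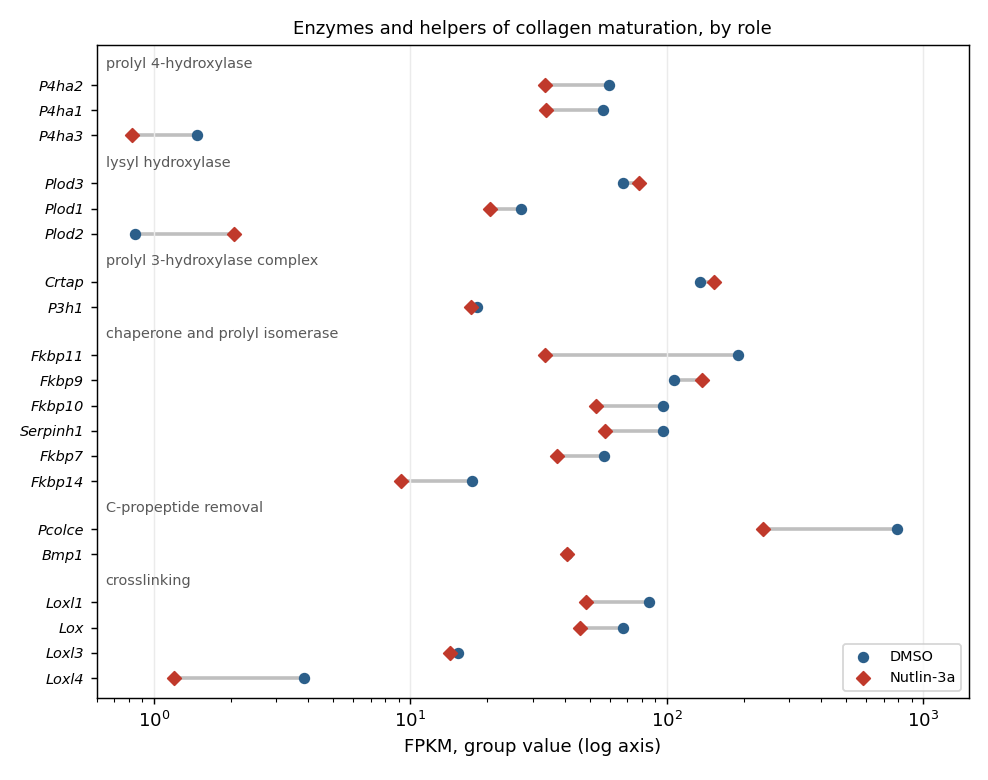
FPKM of each enzyme or helper compared (log axis), grouped by role, with circles for DMSO and diamonds for Nutlin-3a, each a group value without replicate error. Fkbp11 and Pcolce have the widest gaps, from 189.7 to 33.5 FPKM and from 788 to 237 FPKM, while the symbols of Bmp1 nearly coincide.

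Of the 3 prolyl 4-hydroxylases, whose product 4-hydroxyproline stabilises the collagen helix, 0 passed the limit. Over all genes compared, 6.14% were lower and 6.62% higher, so 0 of 3 does not set them apart. P4ha1, a catalytic subunit, had 33.8 against 56.3 FPKM (log2 ratio -0.72), and P4ha2, the other abundant one, had 33.4 against 59.5 FPKM (-0.81). P4ha3 was weak at 0.825 against 1.47 FPKM (-0.44, and -0.15 with a pseudocount of 5). The shared β subunit P4hb, which is also a general disulfide isomerase, lay on the other side of 0, at 584 against 511 FPKM. Col1a2 stood at 14.5 times the FPKM of P4ha1 in DMSO and 7.77 times in Nutlin-3a.

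Lysyl hydroxylases prepare lysines for glycosylation and crosslinking, and 0 of 3 passed the limit, beside 6.14% of all genes lower and 6.62% higher. Plod3, which also transfers glucose to hydroxylysine, had 77.9 against 67.5 FPKM, and Plod1, which acts on helical lysines, had 20.5 against 27.1 FPKM. Plod2, which acts on telopeptide lysines, was weak at 2.06 against 0.844 FPKM, a log2 ratio of 0.73. That ratio was 1.19 with a pseudocount of 0.1 and 0.27 with a pseudocount of 5. The listed model of Plod3 overlaps Znhit1 on the other strand.

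In the prolyl 3-hydroxylase complex, which modifies single prolines of type I collagen, the gene sums of Crtap and P3h1 were close between groups. Crtap, the scaffold of the complex, had 153.1 against 134.7 FPKM and P3h1, its enzyme, had 17.3 against 18.3 FPKM. The P3h1 sum joins transcripts of opposite direction, given below, and those that match the annotation had a log2 ratio of -2.50. P3h2, a relative that acts on type IV collagen, was under the minimum at 0.201 against 0.0285 FPKM. Ppib, the isomerase cyclophilin B of the same complex, had 79.4 against 51.2 FPKM, a log2 ratio of 0.62.

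Chaperones and prolyl isomerases held the lowest member of all. Fkbp11, an FK506-binding isomerase of the secretory pathway, had 33.5 FPKM against 189.7 FPKM, 5.66-fold lower in Nutlin-3a. With a log2 ratio of -2.47 it ranked 17 from the bottom among the 10331 genes compared. Fkbp11 lies on chromosome 15 from 98724368 to 98728198 (mm10), and the other 4 FK506-binding members had log2 ratios from -0.86 to 0.36. Its bases before the RefSeq start, at chr15:98728199-98728448 on the minus strand (GRCm38.p6), are shown because the gene stands apart from its family, and this window held none of the 3 motifs. A window at another listed start, from 98727628 to 98727877 and within GENCODE exons, held a CCAAT and a GGGCGG match.
Fkbp11: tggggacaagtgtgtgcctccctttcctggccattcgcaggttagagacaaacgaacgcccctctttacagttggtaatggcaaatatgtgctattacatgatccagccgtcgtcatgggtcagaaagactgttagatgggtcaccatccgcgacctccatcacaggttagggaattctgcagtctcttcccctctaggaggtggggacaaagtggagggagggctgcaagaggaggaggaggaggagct

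Serpinh1, which encodes HSP47, had 57.5 against 96.3 FPKM (log2 ratio -0.73). Fkbp10, whose product FKBP65 works with HSP47 on type I collagen, had 52.8 against 96.5 FPKM (-0.86), Fkbp14 had 9.24 against 17.5 FPKM (-0.85) and Fkbp7 had 37.4 against 57.0 FPKM (-0.59). Fkbp9 was the member of this group on the other side of 0, with 137.2 against 106.4 FPKM (0.36). Of the 6 chaperones and isomerases, 1 passed the limit as lower, against 6.14% of all genes compared. A log2 ratio below 0 was found in 5 of the 6, against 45.2% of all genes compared. Col1a2 stood at 8.48 times the FPKM of Serpinh1 in DMSO and 4.57 times in Nutlin-3a. The listed model of Fkbp10 reached 16265 bases past the gene and over Nt5c3b on the other strand, so its value is uncertain.

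In the removal of the C-propeptide, enzyme and enhancer differed. Pcolce, which encodes a secreted glycoprotein that speeds up the proteinase on fibrillar procollagens, was 3.33-fold lower (237 against 788 FPKM, log2 ratio -1.73). It was close in size to the shifts of Col1a1, Col1a2 and Col3a1, and it ranked 174 of 16709 symbols by FPKM in DMSO beside Col1a2 at 166. Bmp1, the proteinase itself, was almost equal at 40.9 against 40.7 FPKM (log2 ratio 0.01, -0.06 when centred on the median of all genes, and -0.77 when its more abundant transcript stood for it). Pcolce thus stood at 19.4 times the FPKM of Bmp1 in DMSO and 5.80 times in Nutlin-3a. Pcolce lies on chromosome 5 from 137605107 to 137611404 and Bmp1 on chromosome 14 from 70474555 to 70520260 (mm10), and the listed Pcolce model covers 72.5% of the gene in GENCODE. Pcolce2, a relative, was near 0 in both groups (0.0301 against 0.120 FPKM).

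Of the 4 lysyl oxidases compared, which start crosslinks between collagen molecules, 1 passed the limit as lower and 0 as higher. The shares over all genes compared were 6.14% and 6.62%. Loxl1, known mainly for elastic fibres, had 48.4 against 85.0 FPKM (log2 ratio -0.80) and Lox had 45.9 against 67.5 FPKM (-0.55), so both abundant oxidases were within the limit. Loxl4 was 3.20-fold lower but weak (1.20 against 3.84 FPKM, log2 ratio -1.14), and it was within 2-fold after a correction for GC content (-0.94), with a pseudocount of 5 (-0.51) and when its more abundant transcript stood for it (-0.77). Both of its listed transcripts are newly assembled isoforms, and its model overlaps R3hcc1l on the other strand. Loxl3 had 14.3 against 15.4 FPKM, but its listed model takes in Aup1 on the same strand and is uncertain. Loxl2 was under the minimum at 0.382 against 0.364 FPKM.

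Gene sums hid transcripts of opposite direction in some enzymes. Of the 61 members, 49 had 1 listed transcript and 12 had more. In 4 of these 12 (Bmp1, Fkbp10, Lox and P3h1) transcripts with a mean of at least 0.5 FPKM had ratios of opposite sign. The same share over all genes with more than 1 transcript was not computed, so this count sets nothing apart in the members. For Fkbp10 and Lox the smaller transcript held 1.83% and 1.84% of the gene in Nutlin-3a and less in DMSO.

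Bmp1 and P3h1 were different. Bmp1 had a transcript with 18.1 against 1.22 FPKM, 14.8-fold higher in Nutlin-3a, and another at 22.8 against 39.4 FPKM. The former held 44.2% of the gene in Nutlin-3a and 3.01% in DMSO, while the sums were nearly equal. Bmp1 is known to give a short proteinase and the longer mammalian tolloid, but which listed transcript is which was not analysed here. P3h1 had a transcript at 0.808 against 9.24 FPKM, 11.4-fold lower, and a newly assembled isoform at 16.5 against 9.04 FPKM. Restricted to transcripts that match the annotation, P3h1 had a log2 ratio of -2.50 in place of -0.08. By contrast, both transcripts of P4ha2 were lower by similar amounts, at 17.9 against 30.5 FPKM and 15.5 against 29.0 FPKM.

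**Figure D5:**
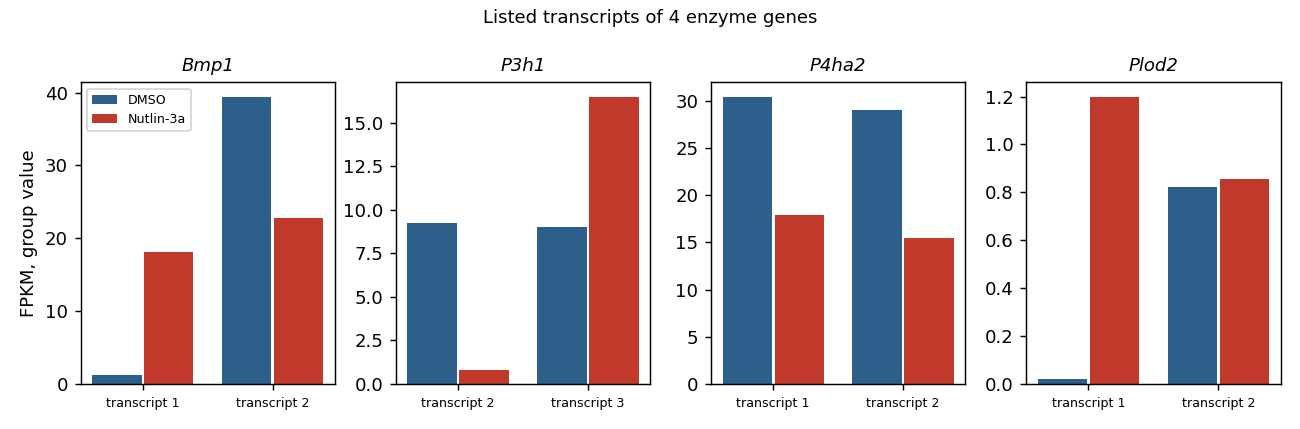
FPKM of the listed transcripts of 4 enzyme genes, with blue bars for DMSO and red bars for Nutlin-3a, each a group value without replicate error, on separate linear axes from 0, leaving out a P3h1 transcript near 0. Bmp1 and P3h1 each hold 1 transcript that is higher and 1 that is lower in Nutlin-3a, both P4ha2 transcripts are lower, and Plod2 differs mainly in its first transcript (1.20 against 0.0206 FPKM).

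Other genes of collagen production and sensing were described from 3 lists. The counts of all 3 stand beside 6.14% of all genes compared lower and 6.62% higher. Of 18 other biosynthesis genes compared (22 listed), 2 passed the limit as lower and 0 as higher, with a median log2 ratio of -0.02. These 2 were Adamts14, a proteinase that removes N-propeptides (2.08 against 8.72 FPKM), and Sec24d, a coat protein of the vesicles that carry procollagen out of the endoplasmic reticulum (2.59 against 7.63 FPKM). Adamts2, the main N-proteinase of type I collagen, had 9.37 against 11.6 FPKM, and Mia3, the procollagen cargo receptor TANGO1, had 6.45 against 6.53 FPKM. Creb3l1, a transcription factor of type I collagen genes in bone, had 14.7 against 21.1 FPKM. The other 16 were within the limit.

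Of the 4 collagen receptor and uptake genes compared (8 listed), 0 passed the limit. The uptake receptor gene Mrc2 came nearest (31.1 against 61.0 FPKM, log2 ratio -0.95), and the collagen-binding kinase gene Ddr2 had 11.1 against 12.6 FPKM. TGF-β signalling is a pathway known to raise collagen expression in fibroblasts. Of its 15 genes compared (16 listed), 2 were lower and 1 higher, against 6.14% and 6.62% of all genes compared. The median log2 ratio of the 15 was -0.02. The ligand genes Tgfb1 (5.41 against 12.5 FPKM) and Tgfb3 (3.51 against 9.70 FPKM) were lower, and Smad7, an inhibitor of the pathway and itself one of its targets, was higher (14.0 against 3.66 FPKM).

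Of 9 preadipocyte and fibroblast markers compared, 8 had a log2 ratio below 0, against 45.2% of all genes compared. Of the 9, 5 (Pdgfra, Ly6a, Vim, S100a4 and Dpt) were at least 2-fold lower, against 6.14% of all genes, the same direction as in the fibrillar chains. The summed level over the 10 listed markers was 4213 against 11729 FPKM. Most of it was S100a4 (2250 against 7580 FPKM) and Vim (1181 against 3169 FPKM). Dlk1 went the other way with 623 against 513 FPKM, and Cd34 was near 0 (0.0187 against 0.186 FPKM). In bulk RNA, fewer cells of a type and less RNA per cell cannot be told apart. The summed level was 11.1 against 7.99 FPKM for 5 macrophage markers, 2.11 against 0.218 FPKM for 4 endothelial and 1.05 against 0.315 FPKM for 4 epithelial markers. Most of the endothelial sum in Nutlin-3a was Pecam1 (1.57 against 0.0260 FPKM). The sum was 25.2 against 19.6 FPKM for 7 markers of bone and cartilage and 6.60 against 5.27 FPKM for 5 of muscle. Among those of muscle, Acta1 was weak and just past the 2-fold limit as higher (1.74 against 0.368 FPKM). Des, the most abundant of them, went the other way within the limit (4.15 against 4.90 FPKM). For 5 markers of mature adipocytes the sum was 9.67 against 42.1 FPKM, nearly all of it Fabp4 (8.65 against 42.0 FPKM). The others went the other way at under 1 FPKM: Adipoq (0.840 against 0.0409 FPKM), Cidec (0.0727 against 0.0609 FPKM), Lep and Plin1. In DMSO, Ptprc, Kdr, Epcam, Sp7, Acan, Bglap, Matn1, Myod1, Myog, Myh3, Lep and Plin1 were listed at 0, and the highest of them in Nutlin-3a was Bglap at 1.01 FPKM. Over all 16709 symbols, 2346 were listed at 0 in DMSO and 466 in Nutlin-3a, so such zeros were not particular to these markers. The part of these markers in the collagen values was not tested.

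GC content moved with the ratios across all genes. Glycine and proline codons are rich in G and C, and the members compared had a median GC content of 56.3% against 49.9% for all genes compared. Of the 42, 27 were in the class of highest GC when all genes were split into 4 equal classes. The median log2 ratio of all genes in these classes, from lowest to highest GC, was 0.23, 0.11, -0.01 and -0.13, and that of the members within them was -0.57, -0.66, -0.81 and -0.66. After a correction for GC content, Col1a1 (-1.35), Col1a2 (-1.52), Col3a1 (-1.61), Pcolce (-1.62) and Fkbp11 (-2.29) were still at least 2-fold lower, while Col5a3 (-0.92), Col6a2, Col6a3, Col15a1 and Loxl4 were within 2-fold. With this correction 5 of 42 members counted as lower, against 5.02% of all genes, and 3 as higher, against 7.08%. The median over the members was then -0.53.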

How the data were processed

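In all, 4 RNA libraries from 3T3-L1 preadipocytes, 2 per group, were made from TRIzol extracts, per the labels' protocols. The submitters' processing notes name TopHat2 2.0.11 and mm10. No source used here states the quantifier, its annotation, or how replicates were merged. Per the file headers, the authors deposited FPKM in columns marked NUT and DSM, 1 value for each of 24746 transcripts and each group, read as Nutlin-3a and DMSO. Another 2 columns of group values were not used, and 4294 lines without values were left out.

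FPKM was summed by symbol, a pseudocount of 1 added and log2 ratios taken with Python 3.11.15, numpy 2.4.6 and pandas 2.3.3. GC content came from GENCODE M21, matched by symbol for 9935 genes compared (96.2%), and was corrected by the median of 20 classes. The script that counts ratios past the limit was checked on simulated data with known folds, which gives no replicate error for the real values. By rule, every member is accounted for, with both values for each fibrillar chain, type IV chain and enzyme compared and for other chains past the limit or abundant. From the other lists, genes past the limit or of a role in the text are named. The members, lists and limits were chosen with earlier results of these data known. With no value per library, the 2-fold limit took the place of a test. Starts are counted from 1. Protein features were not analysed here.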

Additional observations from a re-analysis of the deposited data

How the results depend on the processing

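No paired analysis was possible because the table gives 1 value per group and none per library, and leaving out each replicate was not run for the same reason. Across the other alternatives (pseudocounts, minimum means, scalings, transcript choice, fold limit and GC correction), no member at least 2-fold away reversed, and Col1a1, Col1a2, Col3a1, Pcolce and Fkbp11 stayed at least 2-fold lower in each. The count of members lower was 10, and 11 when centred on the median of all genes. It was 9 with a mean of at least 5 FPKM, 9 with the most abundant transcript alone and 23 with a limit of 1.5-fold. It was 5 with a pseudocount of 5 and after a correction for GC content. Other chains then had 0 lower in both cases, and 0 higher with a pseudocount of 5 or a mean of at least 5 FPKM (main counts 3 lower and 2 higher). Fibrillar chains had 1 higher with pseudocounts of 0.1 and 0.5 and after the GC correction, and enzymes 1 higher with a pseudocount of 0.1, where the main count was 0. With a limit of 1.5-fold the counts lower were 6 for fibrillar chains, 1 for type IV chains, 6 for other chains and 10 for enzymes. The counts higher were 1 for fibrillar chains, 0 for type IV chains, 3 for other chains and 1 for enzymes. Over all genes at that limit, 15.2% were lower and 17.8% higher. The median of type IV chains was -0.02 after the GC correction and 0.02 without a minimum mean, which put the median over 58 members at -0.26. The median of other chains, -0.66, was -0.11 without a minimum mean, -0.34 with a pseudocount of 5 and -0.46 after the GC correction. Over all genes, 998 were higher and 845 lower with a pseudocount of 0.1, and 249 and 291 with a pseudocount of 5. The most abundant transcript alone gave a log2 ratio of -0.77 for Bmp1 and 0.80 for P3h1, and Col7a1 was at 0.18 after the GC correction. Alternatives chosen after seeing the data were the restrictions to annotated transcripts and to genes with a GC content, and leaving out P3h1 and P3h2 or Loxl3. Both omissions left the counts at 10 lower and 2 higher. The depth of the libraries is unknown, so values near 0 set no limit.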
